A study of Mus musculus with 6 samples.

Results

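T lymphocytes and natural killer (NK) cells share a tumour with its macrophages, and the RNA of genes that mark them was measured here in libraries of sorted macrophages. The 36 genes described are a chosen list of T-cell, regulatory T-cell and NK genes, found by symbol in a deposited table of 21878 mouse genes, and all 36 were in that table. The KO group is 3 libraries from mice with floxed alleles of Trmt61a and LysM-Cre. The WT group is 3 libraries from mice with the same floxed alleles and no Cre. All 6 came from tumour-associated macrophages collected by fluorescence-activated sorting 14 days after MC38 tumour injection, MC38 being a mouse colon carcinoma line. LysM-Cre is expressed from the Lyz2 locus in myeloid cells, neutrophils included, and not in T or NK cells, so the deletion is not directed at the cells that normally express most of these 36 genes. The sources used here do not give the age or sex of the mice, the exons flanked by loxP or the sorting gate. Nor do the labels say that each replicate is a separate mouse or that animals were not pooled, so every p-value refers to library-to-library spread that could be purely technical.

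The T-cell antigen receptor signals through the CD3 chains, whose cytoplasmic tails are phosphorylated by the kinase Lck and then bind the kinase Zap70, which phosphorylates the adaptor Lat. Helper and cytotoxic T cells carry the coreceptors CD4 and CD8. Regulatory T cells are set by the transcription factor Foxp3 and restrain immune responses in tumours. NK cells recognise stressed cells through lectin-like receptors, and both NK and cytotoxic T cells kill with perforin and granzymes.

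Libraries held 18839026 to 20313597 counts in KO and 19622763 to 20247004 in WT. Trmt61a had 41, 33 and 50 counts in KO libraries, against 157, 138 and 148 in WT libraries (log2 -1.81, SE 0.20, edgeR adjusted p = 0.0426), so all 6 followed their labels, although the adjusted p was 0.0707 to 0.314 when any library other than KO replicate 2 was left out. Macrophage markers other than Lyz2, namely 11 genes such as Csf1r, Adgre1 and C1qa, summed to 14400, 14600 and 14200 CPM in KO and 16100, 15400 and 14400 CPM in WT. CPM is a gene's count scaled to the TMM-adjusted size of its library. On the first principal component of all tested genes, with 32% of the variance, KO replicate 2 had a score of -29.4 and the other 5 libraries scored -5.26 to 18.0. The same library stands apart in the genes described here, so every fold change is plotted with and without it, and the main ones are given both ways in the text.

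The 36 genes were scarce in these libraries. They took 0.025%, 0.0392% and 0.0276% of counts in KO replicates 1 to 3 and 0.022%, 0.0242% and 0.0281% in WT replicates 1 to 3. Their summed level was 245, 399 and 276 CPM in KO, against 220, 247 and 277 CPM in WT. The summed level was highest in KO replicate 2, and the groups overlapped. The difference of mean log2 sums, KO minus WT, was 0.28, which was below the within-group SD of 0.285, and it was 0.0756 without KO replicate 2 and 0.43 without KO replicate 1. In bulk RNA, fewer cells of a type and less RNA per cell cannot be told apart.

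A single gene, Il7r, gave a large share of that sum. Il7r encodes the interleukin 7 receptor alpha chain, which naive and memory T cells need to survive and which some myeloid cells also express. It held 61.1%, 44.7% and 56.2% of the summed CPM in KO libraries and 51.2%, 59.3% and 49.5% in WT libraries. Without Il7r, the other 35 genes summed to 95.3, 221 and 121 CPM in KO, against 107, 101 and 140 CPM in WT. KO replicate 2 was thus 1.58 times the next library, WT replicate 3, once Il7r was left out, and 1.44 times with it.

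Scaled for length, as CPM per kilobase of GENCODE M21 exons, Il7r (chromosome 15, 9505788 to 9530176, minus strand, GRCm38) had a level of 34.5 ± 3.2 in KO and 28.3 ± 3.66 in WT (SD, n = 3 each). Next in level per kilobase came the granzyme genes Gzmb, at 8.99 ± 3.04 in KO and 8.4 ± 1.94 in WT, and Gzmc, at 5.92 ± 0.546 in KO and 5.78 ± 1.99 in WT (SD, n = 3 each). Foxp3 was at 0.524 ± 0.191 per kilobase in KO and 0.3 ± 0.148 in WT. Lowest of the 36 was Ncr1, the gene of NKp46, a receptor that defines NK cells in the mouse. It had 0, 3 and 5 counts in KO and 4, 0 and 2 in WT, where a count of 0 allows up to 0.156 CPM in KO replicate 1 and 0.151 CPM in WT replicate 2, and those limits cover counting error only. Ncr1 did not pass the filter on low counts, and the other 35 genes did.

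RUNX, TCF/LEF and ETS factors bind control regions of many lymphocyte genes, so the promoters of the 3 CD3 genes that sit together on chromosome 9 and of a granzyme pair on chromosome 14 are shown. Cd3d and Cd3g lie head to head, 1.35 kb apart, and Cd3e lies 11.4 kb from Cd3d. Gzmb and Gzmc are neighbours, 24.2 kb apart on the same strand, and behave differently across the libraries below. Each sequence is the RefSeq window around a transcription start on GRCm38.p6, read on the strand of the gene. Capitals mark every match, on both strands, to TGTGGT (RUNX core), CTTTG (TCF/LEF core, the family of Tcf7) or AGGAAG (ETS core).
Cd3d (chr9:44981536-44981835, plus strand): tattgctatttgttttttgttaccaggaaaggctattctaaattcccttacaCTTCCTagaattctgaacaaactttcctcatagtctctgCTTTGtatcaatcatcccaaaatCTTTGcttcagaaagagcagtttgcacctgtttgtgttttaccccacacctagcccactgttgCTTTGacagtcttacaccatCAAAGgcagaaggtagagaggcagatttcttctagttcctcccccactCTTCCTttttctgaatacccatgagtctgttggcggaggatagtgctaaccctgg
Cd3g (chr9:44980382-44980681, minus strand): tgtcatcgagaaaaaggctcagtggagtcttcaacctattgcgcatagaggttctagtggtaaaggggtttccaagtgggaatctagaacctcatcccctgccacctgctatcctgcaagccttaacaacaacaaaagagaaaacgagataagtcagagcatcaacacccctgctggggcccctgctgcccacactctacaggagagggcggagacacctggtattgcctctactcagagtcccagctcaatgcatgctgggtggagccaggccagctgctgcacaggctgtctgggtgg
Cd3e (chr9:45009562-45009861, minus strand): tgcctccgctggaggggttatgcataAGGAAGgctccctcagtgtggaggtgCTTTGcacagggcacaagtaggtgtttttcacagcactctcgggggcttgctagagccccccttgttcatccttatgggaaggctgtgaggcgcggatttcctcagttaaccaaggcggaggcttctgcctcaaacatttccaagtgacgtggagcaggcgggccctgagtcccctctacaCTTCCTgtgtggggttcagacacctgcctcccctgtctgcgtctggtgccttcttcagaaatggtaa
Gzmb (chr14:56262285-56262584, minus strand): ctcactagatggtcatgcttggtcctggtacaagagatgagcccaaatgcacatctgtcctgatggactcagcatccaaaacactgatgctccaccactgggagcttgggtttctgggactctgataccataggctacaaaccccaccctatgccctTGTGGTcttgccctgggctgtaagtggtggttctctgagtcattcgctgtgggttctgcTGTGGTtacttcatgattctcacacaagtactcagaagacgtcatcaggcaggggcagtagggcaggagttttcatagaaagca
Gzmc (chr14:56234608-56234907, minus strand): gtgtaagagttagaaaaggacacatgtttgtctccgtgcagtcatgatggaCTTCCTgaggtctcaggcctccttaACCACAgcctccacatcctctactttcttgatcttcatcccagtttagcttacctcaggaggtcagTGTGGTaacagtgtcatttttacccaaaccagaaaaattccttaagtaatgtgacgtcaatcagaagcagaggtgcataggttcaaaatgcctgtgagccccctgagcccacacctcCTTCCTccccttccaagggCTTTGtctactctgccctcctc

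RefSeq windows were matched for 27 of the 36 genes, 33 windows in all. TGTGGT was found in 39.4% of these windows, against 16.8% of all 32851 promoter windows of the same length. CTTTG was found in 57.6% of them, against 53.9% of all windows, and AGGAAG in 54.5%, against 35.4%. The Cd3d window held 4 matches to CTTTG and 2 to AGGAAG, while the Cd3g window held none of the 3 motifs. The Gzmb and Gzmc windows each held 2 matches to TGTGGT. These are matches of letters and no more.

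**Figure D1:**
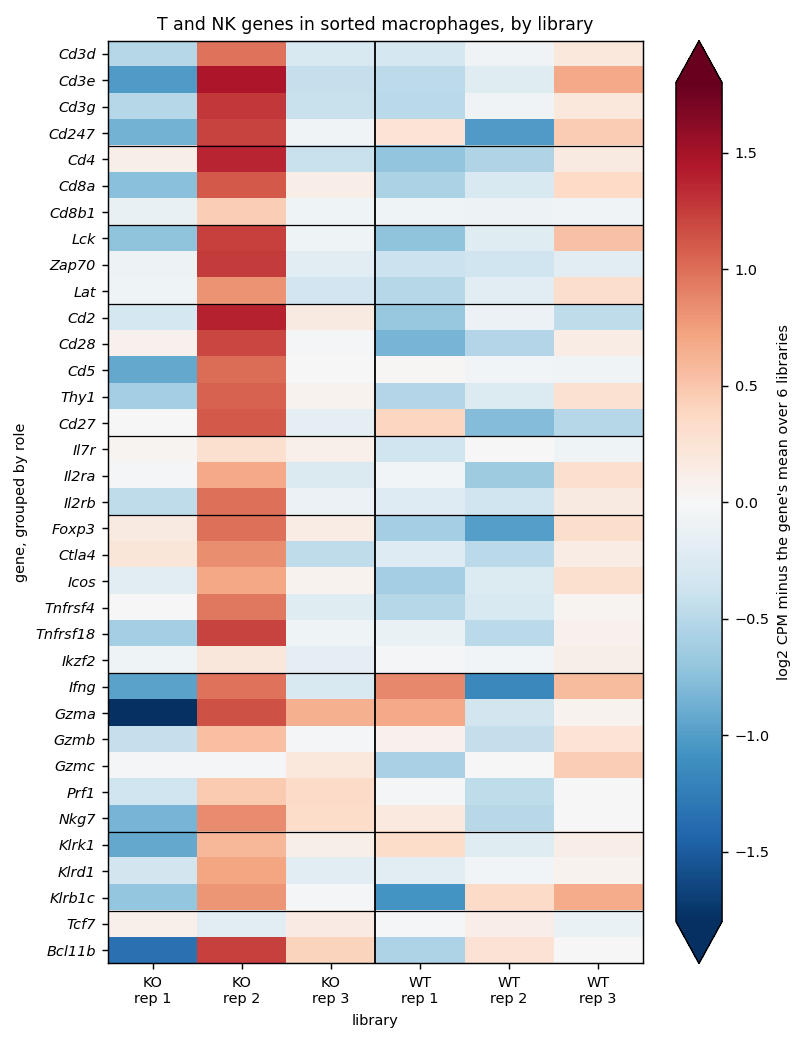
Levels of the 35 tested genes in each library, as log2 CPM minus the mean of that gene over the 6 libraries, with KO libraries left of the line, WT libraries right of it and genes grouped by role. In nearly every row the deepest red is in KO replicate 2, while Il7r, Ikzf2 and Tcf7 are pale in all 6 columns and Gzmc is reddest in WT replicate 3.

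The genes were highest together in a single library. Of the 36, 33 had their highest CPM in KO replicate 2, 2 in KO replicate 3 (Tcf7 and Ncr1) and 1 in WT replicate 3 (Gzmc). Across the 12136 tested genes, 24.8% were highest in KO replicate 2. KO replicate 2 was over 1.5 times the next library for 20 of the 35 tested genes, against a background of 1.12% of tested genes, and its median ratio to the highest other library was 1.59, against 0.905 over all tested genes. At the low end, 14 were lowest in KO replicate 1 (20% of all tested genes were), 11 in WT replicate 1 (20.5%) and 9 in WT replicate 2 (12%). KO replicate 1 was the lowest library for the summed CD3 chains, and WT replicate 1 was the lowest for the summed coreceptors, receptor signalling genes and surface genes. With KO replicate 2 left out, 22 of the 36 were highest in WT replicate 3, where 15.8% of all tested genes were highest among the other 5 libraries.

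Summed over its 4 chains, the signalling part of the T-cell receptor was at 3.95, 14.4 and 5.03 CPM in KO, against 5.1, 5.29 and 7.83 CPM in WT. The exact Poisson 95% interval of KO replicate 2 was 12.7 to 16.2 CPM, from 274 counts. That of the next library, WT replicate 3, was 6.65 to 9.15 CPM, from 157 counts, and the 2 intervals, which cover counting error only, did not overlap.

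Cd3d, a CD3 chain that pairs with epsilon, was at 1.25, 3.52 and 1.48 CPM in KO and 1.43, 1.71 and 2.04 CPM in WT. Cd3e, the epsilon chain that every CD3 dimer contains, was at 0.519, 2.89 and 0.789 CPM in KO and 0.765, 0.907 and 1.69 CPM in WT. Cd3g, the gamma chain, was at 1.56, 5.35 and 1.68 CPM in KO and 1.58, 2.12 and 2.54 CPM in WT. All 3 had the same order at the top, KO replicate 2 and then WT replicate 3, and all 3 were lowest in KO replicate 1. Cd247, the zeta chain, was at 0.623, 2.62 and 1.08 CPM in KO and 1.33, 0.554 and 1.55 CPM in WT. Its value is less certain, since 56.4% of its exon bases overlap exons of Pou2f1 on the other strand and no source used here gives the strand setting of the counting.

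The fold changes of the CD3 genes came from KO replicate 2. The log2 fold change, KO over WT, was 0.26 for Cd3d (SE 0.41), 0.31 for Cd3e (SE 0.63), 0.45 for Cd3g (SE 0.48) and 0.33 for Cd247 (SE 0.55), with edgeR adjusted p values of 0.852 to 0.928. Without KO replicate 2 the same genes were at -0.34, -0.77, -0.36 and -0.41. The groups overlapped for each chain.

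The kinases and the adaptor of the receptor behaved alike. Lck was at 3.06, 11.8 and 4.78 CPM in KO, against 3.06, 4.33 and 7.28 CPM in WT. Zap70 was at 1.82, 4.67 and 1.68 CPM in KO, against 1.48, 1.51 and 1.69 CPM in WT. Lat was at 2.13, 3.94 and 1.77 CPM in KO, against 1.58, 1.97 and 2.79 CPM in WT. KO replicate 2 was 2.57 times the next library for Zap70, the largest such ratio among the 36 genes, while for Lck and Lat WT replicate 3 stood between KO replicate 2 and the other libraries. None of the 3 passed (log2 0.41, 0.80 and 0.30, SE 0.51, 0.41 and 0.36, for Lck, Zap70 and Lat, edgeR adjusted p = 0.874, 0.725 and 0.863), and without KO replicate 2 the log2 values were -0.32, 0.16 and -0.12.

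Of the coreceptors, Cd4 was at 2.44, 5.83 and 1.72 CPM in KO and 1.38, 1.56 and 2.54 CPM in WT. Cd8a, the alpha chain of CD8, was at 2.6, 9.45 and 4.78 CPM in KO and 2.96, 3.63 and 5.63 CPM in WT. Both peaked in KO replicate 2, at 2.3 and 1.68 times the next library. Cd8b1, the beta chain found on conventional cytotoxic T cells, was at 1.51, 2.26 and 1.58 CPM in KO and 1.58, 1.56 and 1.59 CPM in WT. It spanned 1.5-fold over the 6 libraries where Cd8a spanned 3.64-fold. No coreceptor passed (log2 0.86, 0.46 and 0.17, SE 0.47, 0.45 and 0.29, for Cd4, Cd8a and Cd8b1, edgeR adjusted p = 0.732, 0.843 and 0.906), and without KO replicate 2 the values were 0.18, -0.14 and -0.035.

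Among surface and costimulatory molecules, Cd2, an adhesion receptor of T and NK cells, was at 2.7, 8.71 and 3.75 CPM in KO and 2.09, 3.12 and 2.44 CPM in WT. Cd28, the main costimulatory receptor of T cells, was at 3.48, 7.56 and 3.2 CPM in KO and 1.84, 2.27 and 3.59 CPM in WT. Thy1, a surface glycoprotein of mouse T cells, was at 4.99, 16 and 7.98 CPM in KO and 5.31, 6.45 and 9.22 CPM in WT. Again the groups overlapped and KO replicate 2 was highest. Cd2 and Cd28 had an unadjusted p under 0.05 and did not pass (log2 0.98, SE 0.42, and 0.88, SE 0.39, both with an edgeR adjusted p of 0.713), with 0.34 and 0.38 left without KO replicate 2. Cd5, an inhibitory receptor, spanned 0.987 to 3.73 CPM in KO and 1.79 to 1.89 CPM in WT. Cd27, a costimulatory receptor of the TNF receptor family, was at 0.69 to 1.68 CPM in KO and 0.454 to 1.02 CPM in WT.

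Il7r differed in pattern from the genes above. It was at 150, 178 and 155 CPM in KO, against 113, 146 and 137 CPM in WT. It was the only one of the 35 tested genes whose KO libraries all lay above its WT libraries, where 6.11% of all tested genes did so, and 0 of the 35 had all KO libraries below, where 6.3% of all tested genes did. Its log2 fold change of 0.29 (SE 0.11, unadjusted p = 0.0241) missed the threshold (edgeR adjusted p = 0.703), and was 0.21 without KO replicate 2 and 0.19 without WT replicate 1. Summed, the 3 cytokine receptor genes were at 163, 210 and 170 CPM in KO, above each WT library at 128, 159 and 156 CPM. Il7r gave most of that sum in each library, and the groups overlapped for Il2ra and for Il2rb. Their log2 fold changes, 0.27 and 0.41 with all libraries, were -0.068 and -0.15 without KO replicate 2. The other cytokine receptor chains followed the CD3 genes more closely. Il2rb, the interleukin 2 receptor beta chain of NK and memory T cells, was at 8.57, 23.6 and 11 CPM in KO and 10.1, 9.17 and 13.2 CPM in WT. Il2ra, the alpha chain (CD25) of regulatory and activated T cells, was at 5.09, 8.4 and 4.34 CPM in KO and 5.05, 3.33 and 6.43 CPM in WT.

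Genes of regulatory T cells were highest in KO replicate 2 in 6 of 6 cases, and for 4 of the 6 by a smaller ratio than for any CD3 chain. Foxp3 was at 1.92, 3.41 and 1.87 CPM in KO, against 1.12, 0.857 and 2.14 CPM in WT. KO replicates 1 and 3 therefore lay below WT replicate 3 and above the other WT libraries. A log2 fold change of 0.80 (SE 0.40) missed the threshold (edgeR adjusted p = 0.725), and at 0.46 it was the largest value of the 35 genes once KO replicate 2 was left out. Exons of Foxp3 overlap those of Flicr on the same strand (18.6% of exon bases) and of Ccdc22 on the other (12.9%), which makes its counts less certain.

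Ctla4, an inhibitory receptor that competes with CD28, was at 4.93, 7.56 and 3.1 CPM in KO and 3.62, 3.02 and 4.64 CPM in WT. Icos, a costimulatory receptor, was at 6.02, 11.2 and 7.2 CPM in KO and 4.54, 5.8 and 8.47 CPM in WT. The TNF receptor family genes Tnfrsf4 (OX40) and Tnfrsf18 (GITR), 9.55 kb apart on chromosome 4, were both highest in KO replicate 2, at 1.87 and 2.19 times the next library. Ikzf2, the transcription factor Helios, was nearly level, at 3.06, 3.73 and 2.91 CPM in KO and 3.21, 3.12 and 3.49 CPM in WT. None of these 5 passed (log2 -0.02 to 0.56, edgeR adjusted p = 0.767 to 0.986). Without KO replicate 2, Ctla4 was at 0.092 in place of 0.46, Icos at 0.076 in place of 0.38, Tnfrsf4 at 0.12 in place of 0.56 and Tnfrsf18 at -0.16 in place of 0.54 (log2). An antisense gene, Gm16008, overlaps 27.2% of the exon bases of Tnfrsf18.

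**Figure D2:**
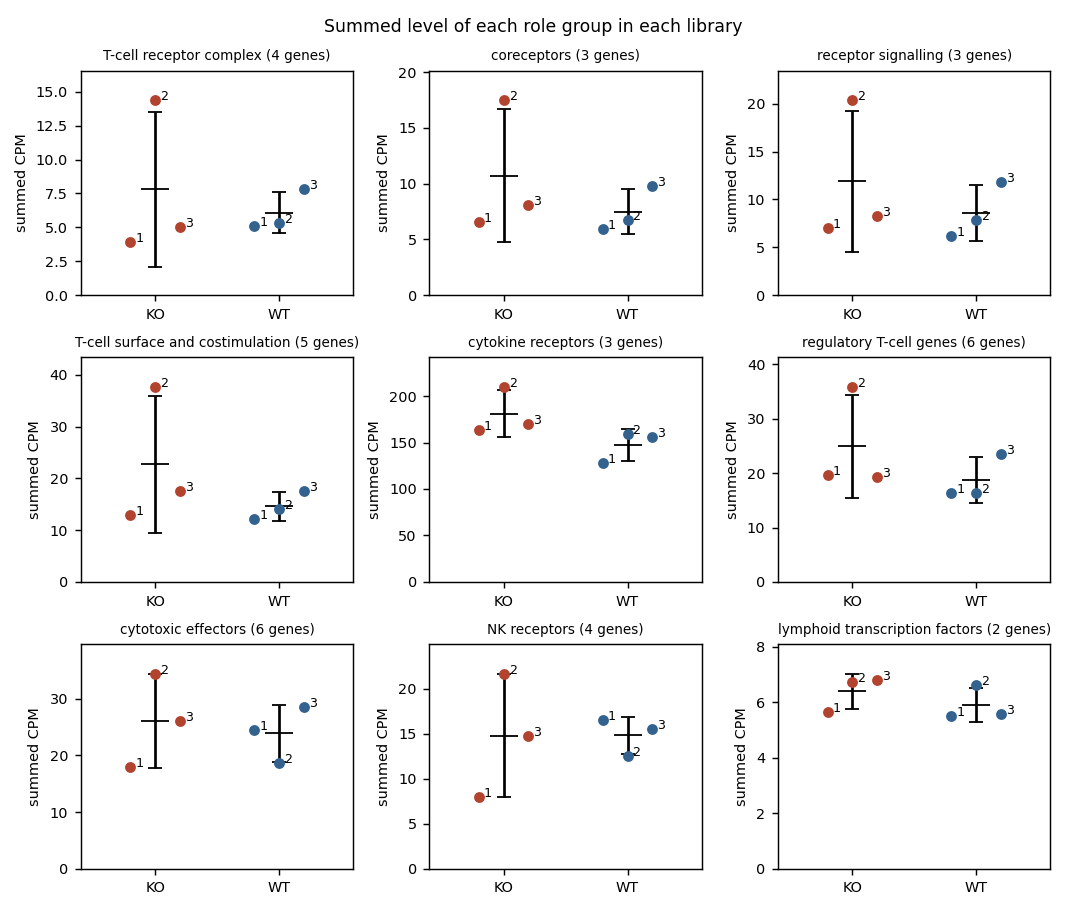
Summed CPM of the genes of each role in each library, with KO left and WT right in each panel, points numbered by replicate, and bars for the mean and SD of 3 libraries. KO replicate 2 is the top point in 8 of 9 panels, and the transcription factor pair, which holds Tcf7 and Bcl11b, is the exception.

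Of the 6 cytotoxic effector genes, 5 were highest in KO replicate 2. Gzmb, the granzyme that cleaves caspases in target cells, was at 9.14, 17.7 and 11.9 CPM in KO and 12.8, 8.97 and 14.4 CPM in WT. Gzmc, its neighbour, was at 4.99, 5.04 and 5.86 CPM in KO and 3.42, 5.09 and 6.98 CPM in WT. Gzmb was highest in KO replicate 2 and Gzmc was not, although the 2 are related in sequence and how reads matching both were assigned is not known. Gzma, a tryptase of NK and cytotoxic T cells, was at 0.208, 2.1 and 1.48 CPM in KO and 1.53, 0.756 and 0.997 CPM in WT. It had only 4 counts in KO replicate 1 and the widest span of the 35 genes of the list that were tested, 10.1-fold.

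Prf1, which encodes perforin, was at 1.51, 2.68 and 2.46 CPM in KO and 1.89, 1.41 and 1.94 CPM in WT. Nkg7, a granule protein, was at 1.51, 4.88 and 3.4 CPM in KO and 3.06, 1.91 and 2.69 CPM in WT. For both, KO replicate 3 was next after KO replicate 2. Ifng, the gene of interferon gamma, was at 0.519, 1.99 and 0.838 CPM in KO and 1.84, 0.454 and 1.5 CPM in WT. WT replicate 1 was close behind KO replicate 2 for Ifng, and the log2 fold change of Ifng, -0.18 with an SE of 0.59 (edgeR adjusted p = 0.954), was -0.88 without KO replicate 2. Gm49751 overlaps 25.9% of the exon bases of Ifng on the same strand, so its counts are less certain. The log2 fold changes of the 6 effector genes ran from -0.18 to 0.35 with edgeR adjusted p values of 0.824 to 0.976.

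Of the NK receptors, Klrk1 (NKG2D, which NK cells, cytotoxic T cells and activated mouse macrophages carry) was at 6.08, 17.3 and 12.3 CPM in KO and 14.4, 9.83 and 12.4 CPM in WT. Klrd1 (CD94) was at 1.4, 2.89 and 1.53 CPM in KO and 1.53, 1.71 and 1.84 CPM in WT. Klrb1c (NK1.1) was at 0.467, 1.31 and 0.739 CPM in KO and 0.357, 0.957 and 1.2 CPM in WT. KO replicate 2 was highest for each, at 1.2, 1.57 and 1.09 times the next library, which was WT replicate 1 for Klrk1 and WT replicate 3 for the others. Gm44511 overlaps 13.9% of the exon bases of Klrb1c on the same strand. No NK receptor passed (log2 -0.03, 0.19 and -0.001, SE 0.33, 0.34 and 0.51, edgeR adjusted p = 0.909 to 0.999). Summed with Ncr1, the NK receptors were at 14.8 ± 6.87 CPM in KO and 14.8 ± 2.08 CPM in WT (SD, n = 3 each).

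The lymphoid transcription factors parted. Bcl11b, which fixes T-cell identity, was at 0.415, 2.47 and 1.38 CPM in KO and 0.714, 1.26 and 1.05 CPM in WT. Tcf7, the gene of TCF-1, which naive and memory-like T cells express, was at 5.25, 4.25 and 5.42 CPM in KO and 4.8, 5.34 and 4.54 CPM in WT. Tcf7 was lowest in KO replicate 2, the library in which the CD3 genes were highest, and spanned 1.28-fold over the libraries, against 5.94-fold for Bcl11b.

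Relating each gene to the summed CD3 chains of its own library separates the genes that kept pace with CD3 from those that did not. Lck stood at 0.776, 0.818 and 0.951 of the CD3 sum in KO and 0.6, 0.819 and 0.93 in WT. Thy1 stood at 1.26, 1.11 and 1.59 in KO and 1.04, 1.22 and 1.18 in WT, and Il2rb at 2.17, 1.64 and 2.19 in KO and 1.98, 1.73 and 1.69 in WT. These ratios spanned 1.58-fold, 1.53-fold and 1.33-fold over libraries in which the CD3 sum itself ran from 3.95 to 14.4 CPM.

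Other ratios were lowest where CD3 was highest. Il7r stood at 37.9, 12.4 and 30.9 times the CD3 sum in KO and 22.1, 27.7 and 17.5 in WT. Tcf7 stood at 1.33, 0.296 and 1.08 in KO and 0.94, 1.01 and 0.58 in WT, and Ikzf2 at 0.776, 0.259 and 0.578 in KO and 0.63, 0.59 and 0.446 in WT. All 3 ratios were lowest in KO replicate 2 and next lowest in WT replicate 3, the 2 libraries with the highest CD3 sums. Of the 32 genes outside the CD3 chains, 15 had their lowest ratio in KO replicate 2 and 0 their highest there, and a ratio to a common sum moves against that sum by construction.

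**Figure D3:**
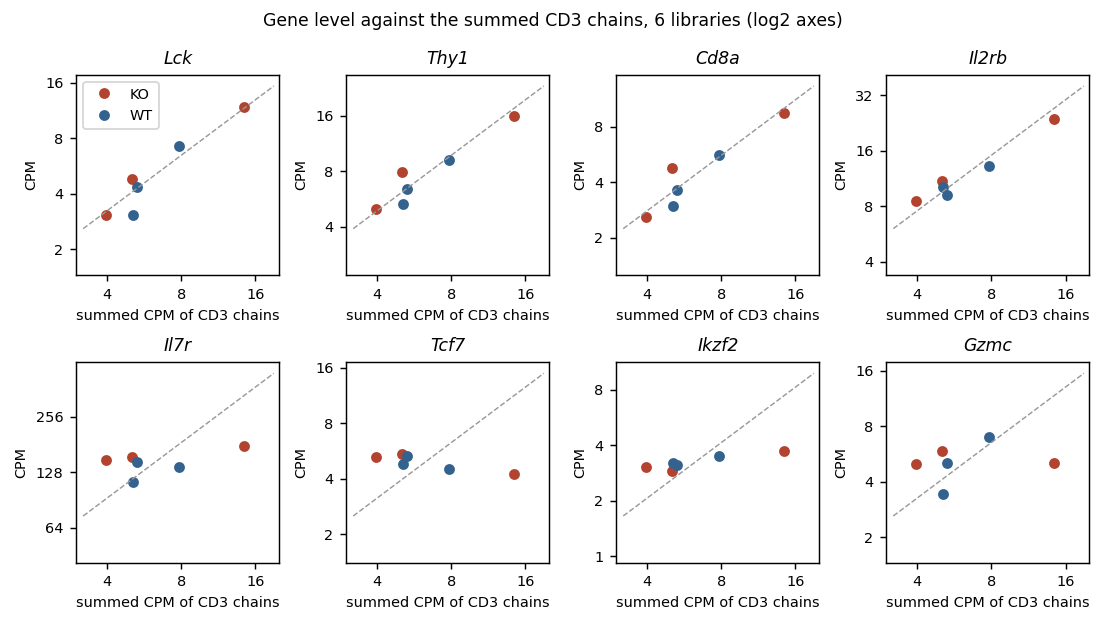
CPM of 8 genes against the summed CPM of the 4 CD3 chains in the same library, on log2 axes, with 1 point a library (KO first in the legend, then WT) and a dashed line for strict proportion through the geometric mean. Points of Lck, Thy1, Cd8a and Il2rb run along the line, while those of Il7r, Tcf7 and Ikzf2 stay nearly level as the CD3 sum goes from 3.95 to 14.4 CPM. Gzmc also leaves the line but is not level, with a 2.04-fold span over the libraries.

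Whether deletion of Trmt61a in myeloid cells went with a change in these genes was asked with edgeR over all 12136 tested genes. Of the 35 tested, 0 passed at an adjusted p under 0.05, against 0.0165% of all tested genes in both directions, and DESeq2 (0.239% of all tested genes) and limma-voom also called 0. At an unadjusted p under 0.05, 3 were higher in KO (Il7r, Cd2 and Cd28), against a background of 3.86% of tested genes, and 0 were lower, against 3.06%. The log2 fold change was positive for 31 of 35, where 49.8% of all tested genes were positive. Their median was 0.34, and that of all tested genes was -0.00088.

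That direction rested on KO replicate 2. With that library left out, 13 of 35 log2 fold changes were positive and 22 negative, with a median of -0.12, where 49.1% of all tested genes were positive, and 0 had an unadjusted p under 0.05. By role, the median without it was -0.39 for the receptor complex, -0.12 for receptor signalling, 0.12 for surface and costimulatory genes, 0.084 for regulatory T-cell genes, -0.12 for cytotoxic effectors and -0.40 for NK receptors. With all libraries the same medians were 0.32, 0.41, 0.63, 0.50, 0.15 and -0.001. The median over the 35 was 0.67 without KO replicate 1 and 0.52 without WT replicate 3, with 34 and 32 positive.

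**Figure D4:**
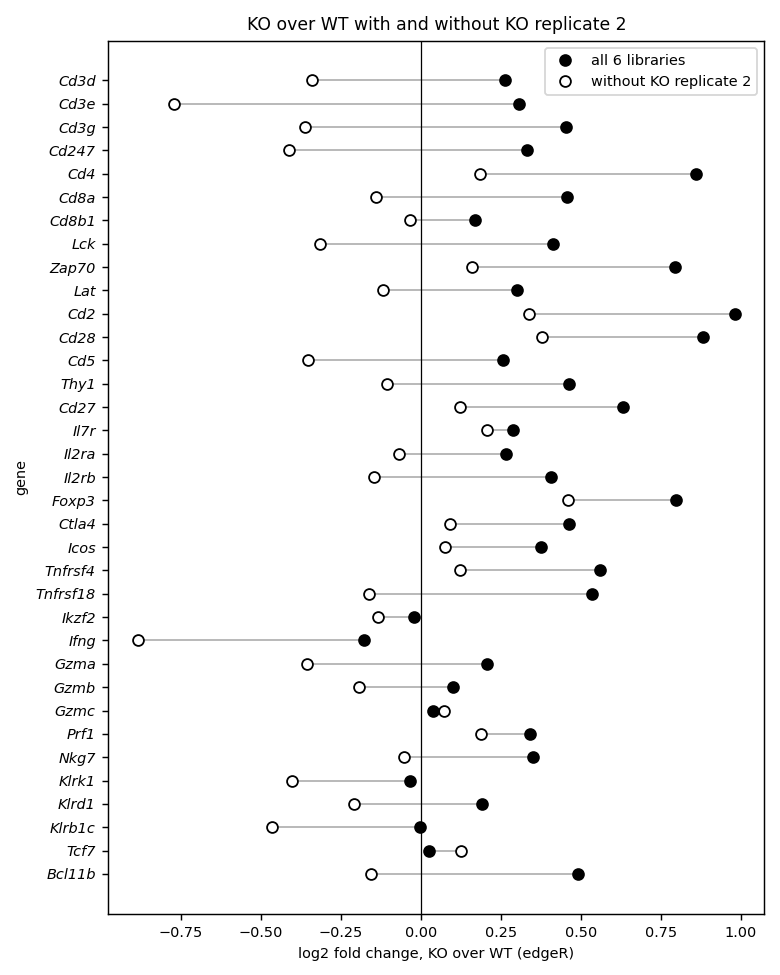
Log2 fold change, KO over WT, of each of the 35 tested genes with all 6 libraries (filled) and without KO replicate 2 (open). Most filled points lie right of 0 and most open points left of it, with medians of 0.34 and -0.12.

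Wider lists of T and NK genes, chosen like the 36 with earlier results of these data known, were counted in the same fit. Of 22 effector and exhaustion genes, 14 were tested and 13 had a positive log2 fold change (median 0.36, and 0.027 without KO replicate 2). Of 24 other T-lineage genes found, 19 were tested and 10 were positive (median 0.043, and -0.26 without KO replicate 2), and of 18 other NK-lineage genes, 12 were tested and 7 were positive (median 0.076, and 0.0099 without it). Of all tested genes, 49.8% were positive (median -0.00088, and -0.0034 without KO replicate 2). With edgeR, 0 passed in any of the 3 lists, where 0.0165% of all tested genes did. At an unadjusted p under 0.05, 1 T-lineage gene was higher and 1 lower, 1 effector gene was lower and 0 NK-lineage genes passed. The background at that level was 3.86% of tested genes higher and 3.06% lower.

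The T-lineage genes with the smallest p were Slamf6 (log2 -0.26, SE 0.11), Ltb, which encodes lymphotoxin beta (1.02, SE 0.43), Lcp2, the adaptor SLP-76 that myeloid cells also use (-0.26, SE 0.12), and Rasgrp1 (-0.22, SE 0.11). Among effector genes they were Il10 (-1.06, SE 0.39), the inhibitory receptors Tigit (0.77, SE 0.40) and Lag3 (0.43, SE 0.27), and Tnfrsf9 (0.39, SE 0.23). Among NK-lineage genes they were Klrc1 (0.58, SE 0.39), the adaptor Fcer1g (-0.085, SE 0.077), Klrg1 (0.72, SE 0.66) and Il18rap (0.14, SE 0.14). Fcer1g was at 482 to 514 CPM in KO and 502 to 577 CPM in WT, and Tnfrsf9 at 193 to 252 and 117 to 232 CPM. Both lay far above the summed CD3 chains, which reached 14.4 CPM, and which cells gave this RNA was not tested. None of the 12 passed (edgeR adjusted p = 0.703 to 0.843). All 12 but Slamf6 moved by over 1.5 times when some single library was left out. Without WT replicate 1, Il10, Tnfrsf9, Klrg1, Lcp2 and Fcer1g were at -0.48, 0.18, 0.19, -0.11 and -0.022. Without KO replicate 2, Ltb, Tigit, Lag3, Klrc1 and Il18rap were at 0.58, 0.46, 0.18, 0.18 and 0.036, and without KO replicate 1 Rasgrp1 was at -0.11.

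KO replicate 2 was the highest library for 14 of the 22 effector and exhaustion genes, 11 of the 24 other T-lineage genes and 8 of the 18 other NK-lineage genes. Of all tested genes, 24.8% were highest there, while these lists also include genes too low to be tested. Skap1 and Ubash3a, T-cell signalling genes chosen after their values were seen, were highest in WT replicate 3, with KO replicate 2 next. Pdcd1 and Ccl5, chosen in the same way, are examples of genes highest in KO replicate 2. Pdcd1, the gene of PD-1, had 23, 105 and 53 counts in KO and 37, 23 and 52 in WT. Ccl5, a chemokine of cytotoxic lymphocytes and macrophages, had 1174, 4378 and 1774 counts in KO and 2192, 2903 and 2033 in WT. The library after KO replicate 2 was KO replicate 3 for Pdcd1 and WT replicate 2 for Ccl5.

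Marker lists of other cells moved unevenly with KO replicate 2. The 10 genes of the T-lineage core summed to 15.1, 49.7 and 20.3 CPM in KO and 15.9, 19.3 and 24.9 CPM in WT. The 7 dendritic cell markers summed to 19.1, 34.5 and 19.3 CPM in KO and 20.7, 13.9 and 25.5 CPM in WT, with KO replicate 2 highest here too. Ccr7, which naive T cells also express, gave 23.7 of the 34.5 CPM in that library. Flt3 (1.78 CPM) and Cd209a (4.36 CPM) were also highest in KO replicate 2. Zbtb46, Xcr1 and Clec9a were highest in WT replicate 3, and Siglech was at 0 or 1 count in each library. The 7 B and plasma cell markers were at 11 to 14.5 CPM in KO and 9.24 to 12.8 CPM in WT, KO replicate 2 being highest by 1.14 times, and most of that was Cd22 and Cd79b. The 4 mast cell and basophil markers were at 2.03, 6.93 and 3.99 CPM in KO and 2.7, 3.07 and 3.39 CPM in WT, again highest in KO replicate 2, where Kit alone gave 6.61 of the 6.93 CPM. Cd79a, a defining B-cell gene, had at most 3 counts in any library.

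Neutrophil markers, 11 genes, summed to 182, 147 and 132 CPM in KO and 120, 85.4 and 97.4 CPM in WT, highest in KO replicate 1, and to 56.6, 101 and 67.6 CPM in KO and 72, 54.7 and 57.2 CPM in WT without Mmp9, highest in KO replicate 2. Fibroblast markers (198 to 292 CPM in KO, 200 to 317 in WT) and endothelial markers (57.9 to 78.6 CPM in KO, 51.2 to 66.6 in WT) were not highest in KO replicate 2. Macrophage markers without Lyz2 were at 14600 CPM there, inside the range of the other libraries. The part of any of these cells in the levels of the 36 genes was not tested.

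**Figure D5:**
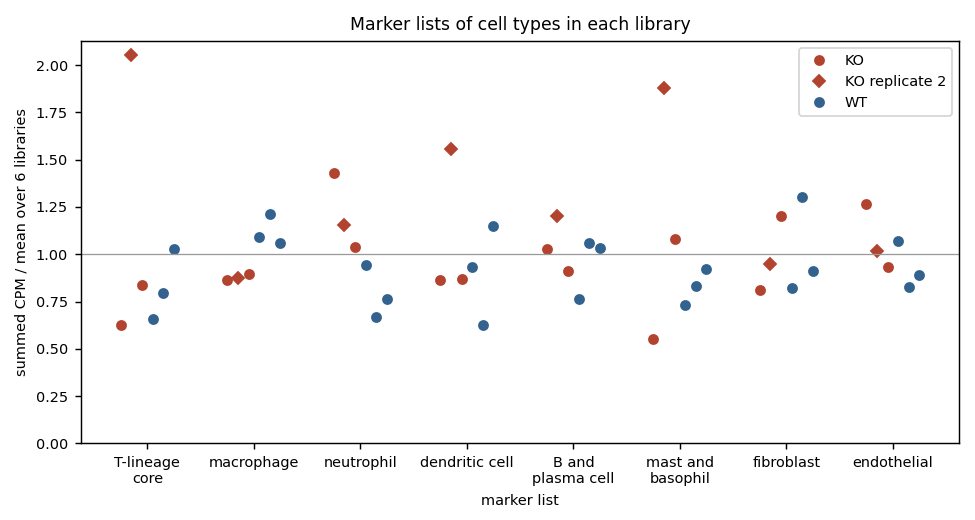
Summed CPM of the marker genes of 8 cell types in each library, divided by the mean of that list over the 6 libraries, with KO points left of WT points in each list and a diamond for KO replicate 2. The diamond is far above the other points for the T-lineage core (49.7 CPM) and high for the dendritic and the mast and basophil lists. It lies among the others for neutrophil, fibroblast and endothelial lists, and among the KO points for the macrophage list. Here the macrophage list includes Lyz2 and the neutrophil list includes Mmp9. With Lyz2, macrophage markers summed to 19000, 19300 and 19800 CPM in KO, all below WT at 24100, 26700 and 23400 CPM. Lyz2 alone gave 4650, 4690 and 5630 CPM of that in KO and 8010, 11400 and 9040 CPM in WT. LysM-Cre is expressed from the Lyz2 locus and is present in KO only, and the cause of the Lyz2 difference was not tested.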

How the data were processed

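RNA was measured in 6 mRNA libraries of sorted tumour macrophages, 3 KO and 3 WT. The authors deposited unnormalized whole-number counts of reads for each gene. RNA came from a mirVana extraction and a TruSeq stranded mRNA library kit was used, per the labels' protocols. Trimmomatic, HISAT2, Cufflinks, HTSeq and mm10 are named, without roles, per the submitters' processing notes. The annotation, strand setting and treatment of multi-mapped reads are not given in the sources used here.

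After filterByExpr (10 counts at least, total of 15 at least), 12136 genes with 99.962% of counts were kept and scaled by TMM. edgeR 4.0.16 in R 4.3.3 fitted a robust quasi-likelihood model with genotype as the only term, and p-values were Benjamini-Hochberg adjusted over all tested genes at 0.05. Fold changes are log2, KO over WT. The steps were tested on simulated counts with the same spread for all genes and no library set apart. That test does not cover genes that vary between libraries as the 36 do. DESeq2 1.42.0 and limma 3.58.1 were alternatives, beside other scalings, other filters, a replicate block and each library left out. Totals per library limit low genes to about 0.15 CPM for 3 counts. Coordinates and exon lengths are from GENCODE M21 on GRCm38, the assembly named mm10, and promoters from RefSeq on GRCm38.p6.

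The 36 genes and all lists were chosen with earlier results of these data known. Named genes are the 36, Trmt61a and, from each wider T and NK list, the 4 tested genes with the smallest p. Other marker lists are given as sums, and a few genes are named after their values were seen. Trac, Trbc1 and Trbc2, constant-region genes of the T-cell receptor, were sought by symbol for the wider T-lineage list. They were not found among the genes of the deposited counts, so they could not be analysed. No library pair agreed within sampling noise (chi-square per degree of freedom of at least 7.7).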

Additional observations from a re-analysis of the deposited data

How the results depend on the processing

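The 15 alternatives were 3 scalings, 2 filters, 2 tools, the fit without robust shrinkage, the replicate block and 6 left-out libraries. Under each, 0 of the 32 to 36 genes tested was called with edgeR, DESeq2 or limma-voom, and 0 to 6 had an unadjusted p under 0.05. The 6 arose without KO replicate 1, where 616 of all 12258 tested genes had such a p, and without KO replicate 3 (1520 of 12235). The 0 arose without KO replicate 2 (745 of 12245) and without WT replicate 1 (440 of 12267). The number highest in KO replicate 2 was 33 under TMM, RLE and upper-quartile factors and library totals alone, a set of scalings added after the data were seen. Over all genes 2 were called, against 1 with RLE factors, upper-quartile factors, library totals alone, no filter, limma-voom or the replicate block, 29 with DESeq2, 0 with a filter of at least 1 CPM in 3 libraries (828 at an unadjusted p under 0.05), and 0 to 5 with a library left out (5 without KO replicate 2, and 0 without KO replicate 1, KO replicate 3 or WT replicate 3, with 616, 1520 and 594 at an unadjusted p under 0.05). The call of Trmt61a was lost with the 1 CPM filter (adjusted p = 0.0571), limma-voom (0.0522), the replicate block (edgeR, 0.103) and any left-out library other than KO replicate 2, with log2 fold changes of -1.82 to -1.81 under those settings and -1.94 to -1.69 with a library left out. The cause was not tested.

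The median log2 fold change ran from -0.12 (without KO replicate 2) to 0.67 (without KO replicate 1) when libraries were left out, and from 0.25 to 0.35 under the other alternatives. Some single genes changed sign. Klrb1c was at 6.83e-05 with no filter, 0.038 with limma-voom and 0.012 with the replicate block, and limma-voom gave -0.003 for Cd3e and -0.24 for Gzma. With libraries left out in turn, log2 values ran from -0.34 to 0.52 for Cd3d, -0.77 to 0.73 for Cd3e, -0.36 to 0.75 for Cd3g, -0.41 to 0.69 for Cd247, -0.35 to 0.61 for Cd5, -0.14 to 0.80 for Cd8a, -0.035 to 0.28 for Cd8b1, -0.32 to 0.82 for Lck, -0.12 to 0.55 for Lat, -0.11 to 0.78 for Thy1, -0.068 to 0.50 for Il2ra, -0.15 to 0.67 for Il2rb, -0.16 to 0.85 for Tnfrsf18, -0.88 to 0.19 for Ifng, -0.36 to 0.70 for Gzma, -0.19 to 0.30 for Gzmb, -0.19 to 0.32 for Gzmc, -0.053 to 0.69 for Nkg7, -0.40 to 0.28 for Klrk1, -0.21 to 0.37 for Klrd1, -0.47 to 0.35 for Klrb1c, -0.038 to 0.13 for Tcf7, -0.16 to 0.93 for Bcl11b and -0.13 to 0.053 for Ikzf2. For 22 of these 24 genes the lowest value came without KO replicate 2, and the exceptions were Gzmc and Tcf7.

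Same-numbered libraries did not deviate together (correlations of deviations -0.0574, -0.0941 and -0.109). The labels state no pairing, and so few libraries cannot show whether any shared a batch. The replicate block gave a median log2 fold change of 0.29 for the 35 genes. Depth limits the rarest genes, since 3 counts are about 0.15 CPM and Ncr1 had at most 5 counts in any library.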

Other observations

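A few genes of other lists, chosen after their values were seen, also varied between libraries. Kit, a receptor of mast cells and of some innate lymphoid cells, had 37, 126 and 63 counts in KO and 52, 59 and 63 in WT, and was highest in KO replicate 2. Cpa3, a protease of mast cells, had 0, 1 and 18 counts in KO and 1 in each WT library. Il17a had 5 counts in WT replicate 1 and 0 in the other 5 libraries, where 0 counts allow up to about 0.15 CPM. Ccr7, a chemokine receptor of migratory dendritic cells and naive T cells, had 283, 452 and 221 counts in KO and 279, 142 and 292 in WT. Cd209a, a lectin of monocyte-derived dendritic cells, had 21, 83 and 77 counts in KO and 23, 35 and 40 in WT, so KO replicates 2 and 3 lay above every WT library and KO replicate 1 below them.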
